A study of Mus musculus with 4 samples.

Results

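Classical target genes of the aryl hydrocarbon receptor (AhR) were followed in Langerhans cells that lacked or carried the receptor. The members were 9 genes known to be induced by AhR, other than its repressor Ahrr: Cyp1a1, Cyp1a2, Cyp1b1, Cyp2s1, Nqo1, Aldh3a1, Tiparp, Scin and Lpin1. Every probe set that the platform annotation gave to a member alone was taken, which made 14 of the 22626 probe sets tested. The 6 genes Cyp1a1, Cyp1a2, Cyp2s1, Nqo1, Aldh3a1 and Scin had 1 probe set each, Lpin1 had 2, and Cyp1b1 and Tiparp had 3 each. No probe set of a member was shared with another gene.

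Langerhans cells are the antigen-presenting cells of the epidermis. They came from the ear skin of mice deficient in exon 2 of Ahr (2 arrays) and of wild-type C57BL/6 mice (2 arrays), and the mice had received no treatment. All cells spent 16 hours in culture and were then sorted alive by their surface MHC class II, with a purity over 95%. The protocol was thus the same for both genotypes. The labels do not give the strain background, age or sex of the AhR-deficient mice, whether the deletion was confined to a cell type, or how many mice each array stood for. They call the arrays biological replicates. P-values therefore measure the spread between these samples only.

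AhR waits in the cytosol bound to chaperones. A ligand sends it to the nucleus, where it pairs with Arnt and binds DNA elements with a short GCGTG core. Its best known targets encode enzymes that oxidise or conjugate foreign and endogenous ring compounds, together with feedback inhibitors such as Ahrr and Tiparp. The skin is exposed to AhR ligands from light, microbes and the environment, and Langerhans cells are known as a cell type that expresses the receptor.

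The RefSeq promoter windows on GRCm38.p6, from 250 bases before to 50 after a gene's start, were available for 8 of the 9 members, and Aldh3a1 had no entry. The core GCGTG, searched on both strands, was present in the windows of 4 members, Cyp1a1, Cyp1b1, Scin and Tiparp, and in 32.4% of all 32851 windows. The stretches around it are shown because they hold the letters that the AhR-Arnt dimer is known to contact. They are written along the gene's own strand, the core is in capitals, and CACGC is the same core on the opposite strand. The stretch of Ahrr is shown for comparison, since Ahrr is an AhR target outside the members that was called lower.
Cyp1a1, chr9:57697531-57697590, plus strand: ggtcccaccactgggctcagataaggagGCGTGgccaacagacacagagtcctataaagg
Cyp1b1, chr17:79715106-79715165, minus strand: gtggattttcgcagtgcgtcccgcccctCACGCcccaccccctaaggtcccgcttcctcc
Tiparp, chr3:65528249-65528308, plus strand: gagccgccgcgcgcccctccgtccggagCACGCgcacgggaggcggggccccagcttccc
Scin, chr12:40134232-40134291, minus strand: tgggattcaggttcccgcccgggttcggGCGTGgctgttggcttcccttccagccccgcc
Ahrr, chr13:74292333-74292466, minus strand: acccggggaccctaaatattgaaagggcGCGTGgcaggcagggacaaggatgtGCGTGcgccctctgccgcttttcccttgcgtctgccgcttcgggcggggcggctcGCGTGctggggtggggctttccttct

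Each of the 4 member windows held the core once, beginning 54 bases before the start in Cyp1a1, 76 in Cyp1b1, 170 in Tiparp and 35 in Scin, while the Ahrr window held it 3 times. The longer form TNGCGTG, which contains the core, occurred in the Ahrr window, in 0 of 8 member windows and in 5.07% of all windows. The antioxidant response element TGACNNNGC, through which Nrf2 acts on genes such as Nqo1, was also in 0 of 8 member windows and in 12.4% of all windows. A match, or the lack of a match, describes these letters in this window only, and binding was not measured.

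The values were deposited on a log2 scale, and every difference below is AhR-deficient minus wild-type on that scale with limma's standard error (SE) and 95% interval, n = 2 arrays per genotype. P-values carry a Benjamini-Hochberg adjustment across every probe set, and an adjusted p under 0.05 counted as a call. Values are given first for the arrays without AhR and then for the arrays with it, replicate 1 before replicate 2. The intervals are for single probe sets and are not widened for the number tested. The array medians lay between 5.60 and 5.63. Values near or below the arrays' 25th percentiles of 4.54 to 4.57 are dim, and a change there may be understated.

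No member rose or fell past the threshold. The signals of Cyp1a1, Cyp1a2, Cyp2s1, Nqo1 and Aldh3a1 lay below the array medians with AhR as well as without it, and those of Tiparp and Scin by their brightest probe set lay above them on all 4 arrays. Of the 14 member probe sets, 0 were called lower and 0 higher in limma, where 0.0177% of all probe sets were called lower and 0% higher. At an unadjusted p under 0.05, 5 member probe sets were lower (35.7%) and 0 higher, where 2.64% of all probe sets were lower and 3.36% higher. For 9 member probe sets (64.3%) the arrays without AhR were the lowest and the genotypes did not overlap, and for 0 the separation ran the other way, where the shares over all probe sets were 16.2% and 19%. Probe sets of a gene share their transcript, so the count was also taken per gene with the probe set of highest mean. Lower values without overlap were then seen for 4 of 9 genes (44.4%), Cyp1a1, Nqo1, Tiparp and Lpin1, where the share over all 12393 genes was 16.6%, and higher values without overlap for 0 of 9, where it was 18.8%. By the same choice of probe set, 2 of 9 genes were lower at an unadjusted p under 0.05 and 0 higher, where the shares over all genes were 3.04% and 3.5%, and 0 of 9 were called, where 0.0323% of genes were called lower. With 2 arrays in each genotype, an exact permutation test of a single probe set cannot give a two-sided p below 0.333.

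The median difference was -0.15 over the 9 genes and -0.30 over the 14 probe sets, where the median over all probe sets was 0.01. Single probe sets ranged from -1.48 to 0.08, and 12 of the 14 were below 0 against 47.5% of all probe sets. Leaving out the AhR-deficient arrays in turn gave a gene median of -0.045 without replicate 1 and -0.28 without replicate 2.

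**Figure D1:**
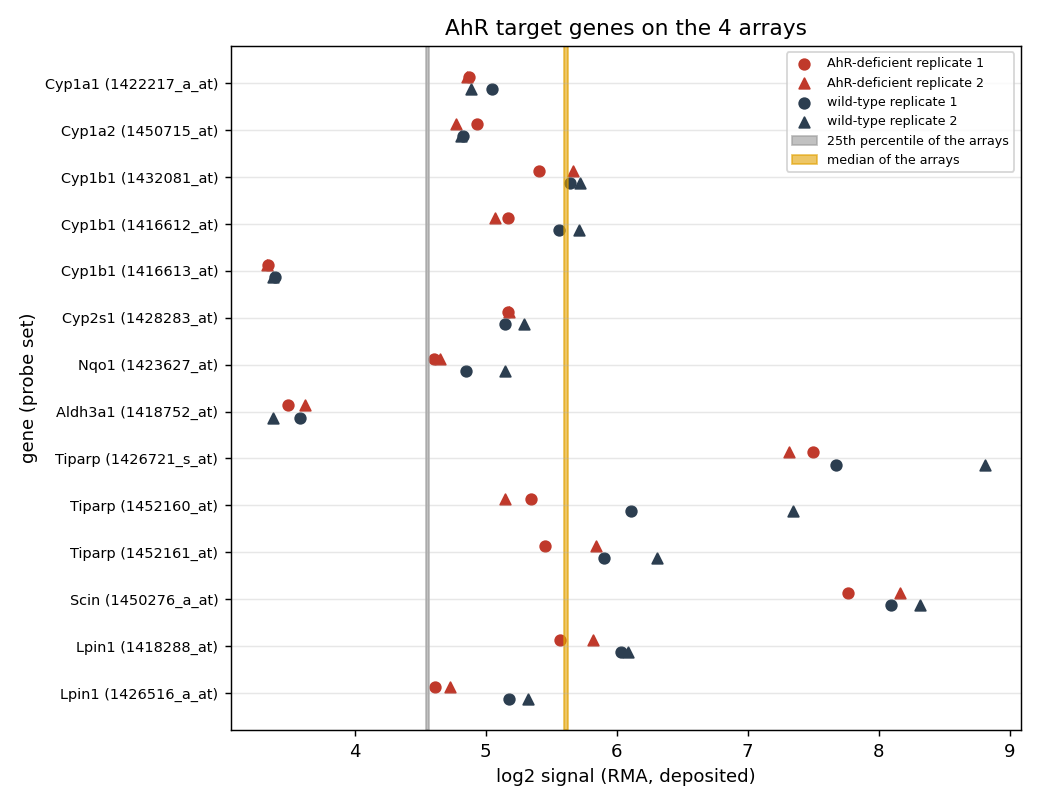
Log2 signal (x axis) of the 14 probe sets of the 9 AhR target genes (y axis) on each of the 4 arrays, with AhR-deficient arrays in red, wild-type arrays in dark blue, and bands for the range of array medians and 25th percentiles. Tiparp and Scin gave the highest signals, 7 probe sets lay below the array median on all 4 arrays, and wild-type replicate 2 stands apart for Tiparp at 8.81.

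Ahrr, the AhR repressor, serves as the reference for a large difference. Its signal was 5.32 and 5.09 without AhR and 8.26 and 8.38 with it. It fell by 3.11 (SE 0.11, limma adjusted p = 0.0403), a fold of 0.116. That call was lost when any of the 4 arrays was left out, with the replicate number as a block (in the labels' or the crossed pairing) and with 16 added on the linear scale, as all calls then were. The Ahr probe set of highest mean gave 8.55 and 8.60 without AhR against 7.61 and 8.23 with it. The annotation does not say whether a probe set of Ahr covers exon 2, so Ahr does not check the genotypes here. Arnt, the DNA-binding partner, differed by 0.00 (SE 0.11) by its brightest probe set. That signal was dim, 4.62 and 4.37 without AhR and 4.49 and 4.49 with it, below the 25th percentile on 3 arrays, so a change may be understated.

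The first group were the cytochrome P450 enzymes, which add oxygen to lipophilic compounds. Cyp1a1, the standard readout of AhR activity, gave 4.87 and 4.86 without AhR and 5.05 and 4.89 with it. The genotypes did not overlap, but the higher AhR-deficient and the lower wild-type array were almost level, and all 4 values were below the array medians. The difference was -0.10 (SE 0.09, 95% interval -0.35 to 0.14, limma adjusted p = 0.912). That interval ends at a fold of 0.784 and so does not reach a 2-fold fall in signal. From wild-type signals as low as 5.05 and 4.89 a 2-fold fall could hardly show, so the interval does not limit a fall in RNA. Without wild-type replicate 1, whose value was the highest, the difference was -0.023.

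Cyp1a2, the paralog best known from liver, gave 4.93 and 4.77 without AhR against 4.82 and 4.81 with it. The wild-type values lay between the AhR-deficient values, and the difference was 0.04 (SE 0.09, 95% interval -0.21 to 0.28). Cyp2s1, a P450 of epithelia, gave 5.17 and 5.18 against 5.15 and 5.29, a difference of -0.05 (SE 0.09, 95% interval -0.29 to 0.19). Both genes overlapped between the genotypes and stayed below the array medians on all 4 arrays. Leaving out 1 array turned the sign of Cyp1a2 (-0.044 without AhR-deficient replicate 1) and of Cyp2s1 (0.027 without wild-type replicate 2).

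Cyp1b1, which oxidises steroids and polycyclic hydrocarbons and is the CYP1 enzyme most often described in leukocytes, gave different answers by probe set. Probe set 1416612_at read 5.17 and 5.07 without AhR and 5.56 and 5.71 with it. The genotypes were separated here by more than the spread within either, with a difference of -0.52 (SE 0.10, 95% interval -0.78 to -0.26, limma unadjusted p = 0.00474, adjusted p = 0.542). The difference stayed between -0.59 and -0.44 when each array was left out.

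Probe set 1432081_at, the brightest of Cyp1b1, read 5.40 and 5.67 without AhR and 5.64 and 5.72 with it. AhR-deficient replicate 2 lay among the wild-type arrays, and the difference of -0.15 (SE 0.12) became -0.017 without AhR-deficient replicate 1. The last probe set, 1416613_at, read 3.34 and 3.33 against 3.40 and 3.38, below the 25th percentile on every array, with a difference of -0.05 (SE 0.07). Probe sets 1416612_at and 1416613_at carry the same source accession in the annotation, and both separated the genotypes in the same direction, at differences of -0.52 and -0.05. Whether the probe sets differ from each other was not tested. With all 3 averaged, Cyp1b1 differed by -0.24 (limma adjusted p = 0.668).

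The other P450 genes were read beside these values. Of the 59 other P450 genes measured, 0 were called in limma, 0 were lower and 1 higher at an unadjusted p under 0.05. Their median difference was -0.01. Over all genes, 3.04% were lower and 3.5% higher at that p. The lowest difference in the list was -0.27. Of the 59 genes, 21 lay below the 25th percentile on every array, where a fall may be understated. The smallest p among the lower genes was that of Cyp4a12a, a fatty acid hydroxylase, at -0.23 (SE 0.09). The gene higher at an unadjusted p was Cyp51, a sterol demethylase of cholesterol synthesis, at 1.11 (SE 0.21). Neither passed adjustment. Of 5 measured genes for electron donors and epoxide hydrolases, which work beside the P450 enzymes, 0 were called and 0 had an unadjusted p under 0.05. Without overlap 0 of the 5 were separated, where the shares over all genes were 16.6% lower and 18.8% higher. The smallest p-values among these 5 belonged to Cyb5r3 at -0.23 (SE 0.18) and Cyb5a at 0.44 (SE 0.51).

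**Figure D2:**
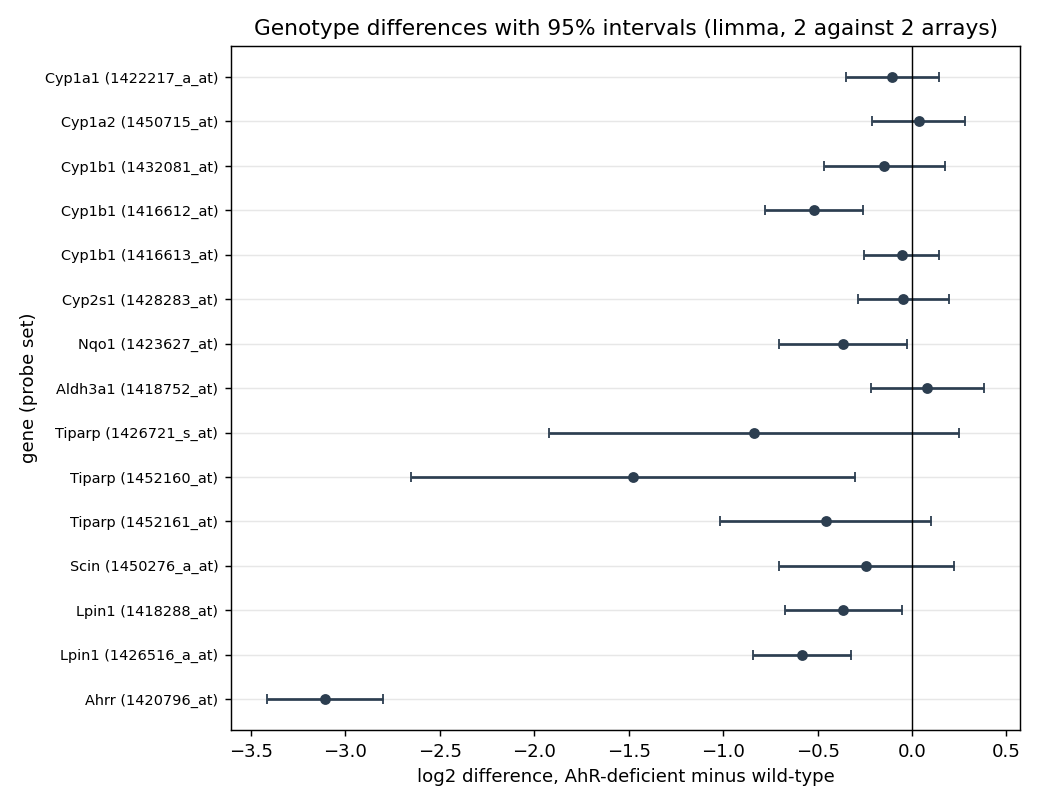
Log2 difference, AhR-deficient minus wild-type (x axis), with its 95% interval from limma, for the 14 member probe sets and for Ahrr (y axis), 2 arrays per genotype. The intervals of 5 member probe sets lie wholly below 0, those of the Tiparp probe sets are the widest, and Ahrr at -3.11 lies apart from all members.

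The next group were enzymes that act on the products of oxidation. Nqo1, a quinone reductase induced through both AhR and Nrf2, gave 4.61 and 4.65 without AhR and 4.85 and 5.15 with it. The AhR-deficient arrays were almost level with each other and close to the 25th percentile, and the wild-type arrays lay above them without overlap. The difference was -0.37 (SE 0.12, 95% interval -0.71 to -0.03, limma unadjusted p = 0.0392, adjusted p = 0.811), and it was -0.22 without wild-type replicate 2. Aldh3a1, an aldehyde dehydrogenase prominent in cornea, gave 3.49 and 3.62 against 3.58 and 3.37. These overlapped and lay below the 25th percentile on all arrays, with a difference of 0.08 (SE 0.11).

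The Nrf2 pathway, the other known inducer of Nqo1, was read through its transcription factor and its targets. Nfe2l2, which encodes Nrf2 and is itself counted among AhR-responsive genes, gave 6.34 and 6.30 without AhR and 7.15 and 7.55 with it, a difference of -1.03 (SE 0.16, limma adjusted p = 0.489). Of 15 measured Nrf2 target genes, 0 were called, 7 were higher without overlap and 2 lower, with a median of 0.15. The shares over all genes were 18.8% higher and 16.6% lower without overlap. The 2 with the smallest p were Txnrd1, a thioredoxin reductase, at 0.54 (SE 0.17), and Hmox1, haem oxygenase, at 0.51 (SE 0.19). Neither passed adjustment. Whether Nrf2 had a part in the difference of Nqo1 was not tested. Of the 16 other aldehyde dehydrogenases, 0 were called and 0 had an unadjusted p under 0.05, with a median of -0.04. At that p, 3.04% of all genes were lower and 3.5% higher.

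Tiparp, also named PARP7, is a mono-ADP-ribosyltransferase that AhR induces and that limits AhR activity in turn. Its 3 probe sets included the 2 largest differences among the members and the 3 largest standard errors. Probe set 1426721_s_at, the brightest, read 7.50 and 7.31 without AhR and 7.67 and 8.81 with it. Probe set 1452160_at read 5.35 and 5.15 against 6.11 and 7.34. Probe set 1452161_at read 5.45 and 5.84 against 5.90 and 6.31. In all 3, the genotypes did not overlap, the arrays without AhR were the lower ones, and wild-type replicate 2 was the highest array.

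The 3 probe sets cite the same source accession, so they are repeated readings of a single gene and not independent evidence. The differences were -0.84 (SE 0.40, 95% interval -1.92 to 0.25), -1.48 (SE 0.43, 95% interval -2.65 to -0.30) and -0.46 (SE 0.21, 95% interval -1.02 to 0.10), with limma adjusted p-values of 0.867, 0.749 and 0.859. For the first, the wild-type replicates differed from each other by 1.14, more than the genotypes did. Without wild-type replicate 2 the differences shrank to -0.27, -0.86 and -0.25, and without wild-type replicate 1 they were -1.40, -2.09 and -0.66. The mean of the 3 probe sets differed by -0.92 (limma adjusted p = 0.718).

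Other genes of the PARP family were measured beside Tiparp. Of 11, 0 were called, 1 was lower and 4 higher without overlap, and the median was 0.14. Over all genes, 16.6% were lower and 18.8% higher without overlap. Parp14, an interferon-inducible family member, gave 9.35 and 8.61 without AhR against 7.74 and 8.22 with it, with a 95% interval of the difference from 0.16 to 1.84, and Parp8 differed by -0.59 (SE 0.20). Neither passed adjustment (limma adjusted p = 0.770 and 0.811).

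The genes most like Tiparp over the 4 arrays, by the root mean square distance between values centred on each gene's own mean, were Rcbtb2 (0.0945), Pmaip1 (0.114) and Anxa1 (0.167). All of these had their highest signal on wild-type replicate 2. Pmaip1, which encodes the apoptosis regulator Noxa, read 7.41 and 7.50 without AhR against 7.71 and 8.72 with it. Anxa1, a phospholipid-binding annexin, read 10.40 and 10.43 against 10.66 and 11.47. Only 1 gene lay within a distance of 0.1 of Tiparp, against 128 for Nqo1, 187 for Scin and 241 for Lpin1. Those counts go with the smaller range of these members, which was 0.54, 0.55 and 0.51 against 1.50 for Tiparp. The closest genes were Zfp277 for Nqo1, Jph2 for Scin and Flad1 for Lpin1. With 4 arrays such likeness is a description only.

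Scin and Lpin1 act outside detoxification. Scin encodes scinderin, also called adseverin, a calcium-dependent actin-severing protein of the gelsolin family. It gave 7.77 and 8.16 without AhR and 8.10 and 8.32 with it. AhR-deficient replicate 2 lay between the wild-type arrays, and all 4 values were well above the array medians. The difference was -0.24 (SE 0.17, 95% interval -0.70 to 0.22, limma adjusted p = 0.899) and became -0.045 without AhR-deficient replicate 1. By RefSeq order Scin lies within 10 Mb of Ahr on the same chromosome, and Lpin1 lies on that chromosome beyond 10 Mb.

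Of the 7 other gelsolin family genes, 0 were called, where 0.0323% of all genes were called lower and 0% higher. At an unadjusted p under 0.05, 1 was lower and 1 higher, where the shares over all genes were 3.04% and 3.5%. Without overlap, 1 was lower and 1 higher, where the shares were 16.6% and 18.8%. The median of the 7 was -0.07. Avil, which encodes advillin, read 6.50 and 6.61 without AhR against 6.94 and 7.16 with it, a difference of -0.50 (SE 0.11). Vil1, which encodes villin of the microvillus, differed by 0.81 (SE 0.22). Neither passed adjustment.

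Lpin1 encodes lipin-1, a phosphatidate phosphatase of glycerolipid synthesis that also acts as a transcriptional coactivator. Probe set 1418288_at read 5.57 and 5.82 without AhR and 6.03 and 6.08 with it. Probe set 1426516_a_at read 4.61 and 4.73 against 5.18 and 5.32. Both probe sets, which cite different source accessions, were lower in each AhR-deficient array than in each wild-type array. The differences were -0.36 (SE 0.11, 95% interval -0.67 to -0.05) and -0.58 (SE 0.10, 95% interval -0.84 to -0.32), with unadjusted p-values of 0.0304 and 0.00304 and adjusted p-values of 0.780 and 0.533 in limma.

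The second Lpin1 probe set had the smallest p among the members, and its difference stayed between -0.65 and -0.51 when each array was left out. The first ranged from -0.49 to -0.24, the latter without AhR-deficient replicate 1. The mean of both probe sets differed by -0.47 (limma adjusted p = 0.437). Of 11 other genes of glycerolipid synthesis, 0 were called, 0 had an unadjusted p under 0.05, and the median was 0.02. Among all genes, 0.0323% were called lower, and 3.04% were lower and 3.5% higher at that unadjusted p. Lpin3, a paralog, differed by 0.19 (SE 0.09) and Dgat2, a final enzyme of triglyceride synthesis, by 0.22 (SE 0.10).

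**Figure D3:**
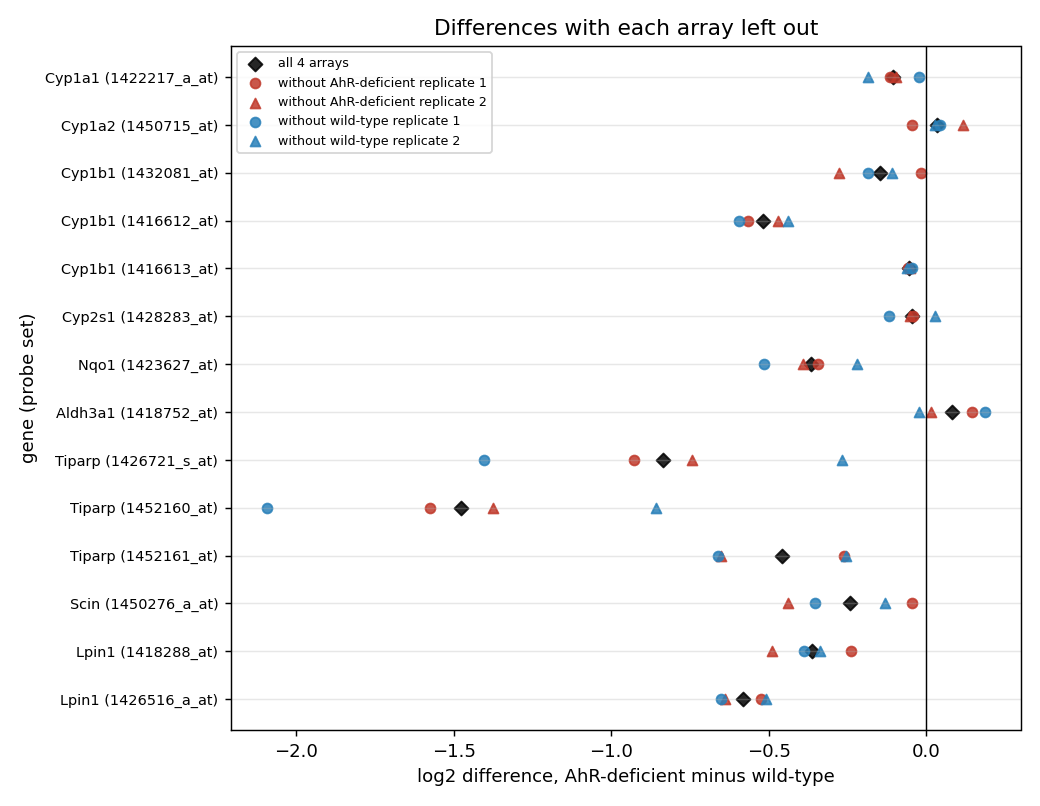
Log2 difference, AhR-deficient minus wild-type (x axis), of the 14 member probe sets (y axis) with all 4 arrays (black diamonds) and with each array left out (coloured points). The Tiparp points spread from -2.09 to -0.25, while those of Cyp1b1 probe set 1416612_at and Lpin1 probe set 1426516_a_at stay between -0.65 and -0.44.

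Other AhR-responsive genes were counted beside the members. Of 17 measured, 0 were called in limma, 3 were lower and 1 higher at an unadjusted p under 0.05, and 5 were lower and 4 higher without overlap. The matching shares over all genes were 3.04% and 3.5% at that p, and 16.6% and 18.8% without overlap. Their median of 0.07 was above 0. Ido1, the enzyme that opens the kynurenine route of tryptophan breakdown, gave 5.31 and 5.62 without AhR against 8.44 and 8.77 with it. Its difference of -3.14 (SE 0.17, limma adjusted p = 0.104) did not pass. Ido1 and Ahrr thus each differed by more than 3 on the log2 scale, while the interval of 11 of the 14 member probe sets did not reach a fall of 1, which is 2-fold. The exceptions were the 3 Tiparp probe sets. Of the 14, 7 lay below the array median on all 4 arrays, and 2 of these below the 25th percentile. In all 7 a fall may be understated. With AhR, Cyp1a1 read 5.05 and 4.89, Cyp1a2 4.82 and 4.81, and Nqo1 4.85 and 5.15, close to the 25th percentiles of 4.54 to 4.57. From that level a 2-fold fall could hardly show, so the intervals of these 3 genes do not limit a fall in RNA. Ahrr and Ido1 read between 8.26 and 8.77 with AhR. Whether members and Ahrr differ in their response was not tested.

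**Figure D4:**
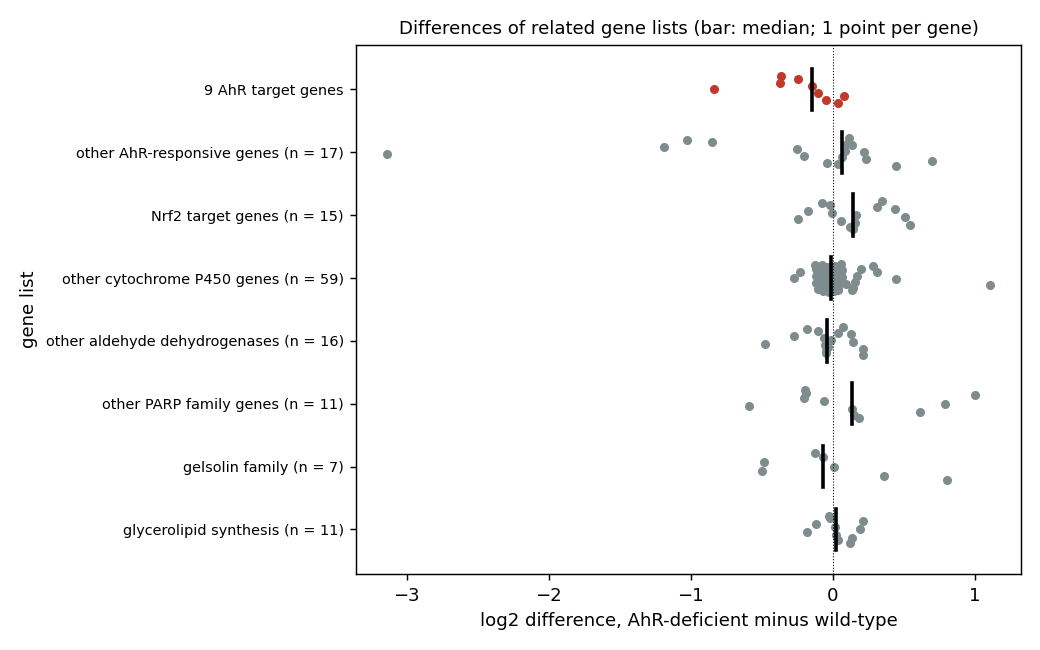
Log2 difference, AhR-deficient minus wild-type (x axis), of each gene by its probe set of highest mean, in the 9 AhR target genes (red) and in 7 related lists (grey), with a black bar at each median. The members have a median of -0.15, and Ido1 at -3.14 is the lowest point of the other AhR-responsive genes.

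The cells carried the Langerhans cell markers Cd207 (langerin), between 11.00 and 12.06, and Epcam, between 10.71 and 11.38, on all 4 arrays, and both genes overlapped between the genotypes. The Langerhans cell marker list as a whole was not level. Of its 14 genes, 0 were called, while 5 were higher and 3 lower without AhR at an unadjusted p under 0.05. Over all genes, 3.5% were higher and 3.04% lower at that p. The smallest p-values were those of H2-Aa, an MHC class II chain, at 1.31 (SE 0.14), and Cd74, the invariant chain, at 0.93 (SE 0.12), in cells that had been sorted by MHC class II. Among the lower genes, Csf1r, a growth factor receptor of these cells, differed by -1.05.

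Markers of other cell types were read on the same arrays, and 0 of them were called in limma. For comparison, 16.6% of all genes were lower and 18.8% higher without overlap. At an unadjusted p under 0.05, 3.04% were lower and 3.5% higher. The mean log2 signal of 16 keratinocyte markers was 5.57 and 5.11 without AhR and 4.93 and 5.03 with it, with 8 markers higher and 2 lower without overlap and 5 below the 25th percentile on every array. Dsp, a desmosome protein, differed by 1.32 (SE 0.43) and Krt14, a basal keratin, by 0.57 (SE 0.22). For 13 T cell markers the mean was 5.43 and 5.46 against 5.84 and 5.68, with 5 lower and 1 higher without overlap. At an unadjusted p under 0.05, 5 of these 13 were lower and 0 higher. Cd3g, a T cell receptor subunit, differed by -1.26 (SE 0.15) and Trat1, an adaptor of that receptor, by -0.94 (SE 0.14).

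For 11 macrophage and neutrophil markers the mean was 6.32 and 6.00 against 5.68 and 5.89, with 6 higher and 1 lower without overlap, 4 higher at an unadjusted p under 0.05 and 3 below the 25th percentile on every array. C1qb, a complement subunit, differed by 1.16 (SE 0.27) and Cd68, a lysosomal protein of phagocytes, by 1.12 (SE 0.19). Adgre1, the 1 marker that was lower without overlap, differed by -0.89 (SE 0.39). The medians of the melanocyte, stromal and mast cell lists were -0.03, -0.03 and -0.0017, and the smallest p among them was that of Kit, the stem cell factor receptor, at -0.64 (SE 0.12).

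The 3′ minus 5′ signal of the Actb control was 2.34 and 2.61 without AhR and 3.16 and 2.65 with it, which did not overlap. That of Gapdh was 2.24 and 2.19 against 2.60 and 1.97, which overlapped. The part of these marker and control values in the members' differences was not tested, and in a bulk sample fewer cells of a type and less RNA per cell cannot be told apart.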

How the data were processed

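Ear-skin Langerhans cells were profiled on 4 Affymetrix MOE430A arrays, 2 per genotype. The authors deposited log2 expression values for each probe set, made with affy and RMA per the submitters' processing notes, with versions not given in the sources used here. RMA ties the 4 arrays by quantile normalisation, so values are relative. Of 22690 probe sets, 64 controls were left out. The platform annotation gave 1 symbol to 20380 of the 22626 tested, several to 691 and none to 1555. All 14 member probe sets matched RefSeq by Entrez identifier.

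A model of genotype was fitted to all 22626 probe sets (limma 3.58.1, R 4.3.3, lmFit and eBayes, residual degrees of freedom 2, prior 2.27), after a test on simulated data. The median SE was 0.10, and the number of arrays limits precision. Named genes were all members, Ahr, Arnt, Ahrr, and the 2 of smallest p and any called in each list. Of the melanocyte, stromal, mast cell and aldehyde dehydrogenase lists, the text names only Kit. The 3 genes nearest in pattern to a member spanning at least 0.5 were also taken. Of these, the text names only the closest for Nqo1, Scin and Lpin1. Cd207, Epcam, Csf1r and Adgre1 were named outside this rule, with their values known. Members, lists and tests were chosen with earlier results of these data known. Alternatives were a replicate block, other eBayes settings, filters, scalings and leaving out arrays. RefSeq promoter windows were searched as text.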

Additional observations from a re-analysis of the deposited data

How the results depend on the processing

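No alternative called a member probe set in either direction, and the lowest adjusted p of any member was 0.374. Over all probe sets, the 4 lower calls became 0 with a replicate block, 0 with 16 added on the linear scale and 7 with a trend in eBayes, which also called 1 higher; the cause was not tested. A crossed pairing (replicate 1 of either genotype with replicate 2 of the other), added after seeing the data because same-numbered arrays deviated from their genotype means in opposite ways (r = -0.309 across probe sets), also gave 0. The labels do not say that the numbers pair the arrays, and they were not used as pairs. Leaving out each array gave 0 calls every time. The member median then ranged from -0.28 to -0.045, the member probe sets lower without overlap from 9 to 12, and those higher without overlap were 1 each time against 0 with all arrays, since a lone array overlaps less often. Leaving out 1 array turned the sign in 3 of 56 member values: Aldh3a1 (-0.022 to 0.19), Cyp1a2 (-0.044 to 0.12) and Cyp2s1 (-0.12 to 0.027). All 142 values under the other alternatives kept their direction, but for many of them this was fixed in advance. A block, the eBayes settings, array weights and the filter of dim probe sets leave each difference unchanged in this design. A direction could turn only under the scalings and, for genes with several probe sets, under the choice of probe sets. Signals below the array medians limit what Cyp1a1, Cyp1a2, Cyp2s1, Nqo1 and Aldh3a1 can show.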
